A study of Mus musculus with 6 samples.

Results

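Endothelial cells line every blood vessel, and 10 genes that mark them were followed in gastrocnemius muscle of tumor-bearing and control mice: Pecam1, Cdh5, Kdr, Flt1, Tek, Tie1, Cldn5, Eng, Esam and Emcn. They were chosen by symbol as markers of the cell type, and all 10 were found among the 13363 genes with a deposited value. The RNA came from the gastrocnemius of male Balb/c mice that were 6 weeks old at purchase and were acclimated for 1 week. Mice of the C26 group had 500000 C26 cells, a mouse colon adenocarcinoma line that causes muscle wasting, injected under the skin of the right flank, and the control mice carried no tumor. Each group had 3 sequenced samples. The labels do not say whether each sample was a separate mouse, so the p-values below measure the spread between these samples.

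Capillaries run along every muscle fiber, and their endothelium delivers oxygen, glucose and fatty acids to it. VEGF-A acts on endothelial cells mainly through the receptor tyrosine kinase VEGFR2, while VEGFR1 binds the same ligand tightly and signals weakly, so that it also acts as a decoy. The angiopoietins act through the Tie receptors, and angiopoietin-1 keeps vessels stable. Neighbouring endothelial cells are held together by VE-cadherin, claudin-5, ESAM and PECAM-1 at their contacts.

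The values were FPKM, read numbers divided by transcript length and by the mapped reads of the sample, which can be compared between genes because they are per length. Their sums differed between the groups, at 531061 to 585169 in the C26 samples and 626992 to 688300 in the controls. For tests the values were therefore rescaled to TPM (a fixed sum per sample), scaled by TMM (a trimmed mean of the log ratios between samples) and log2-transformed after adding 1. Log2 fold changes below are C26 minus control on that scale, and a gene was called when the adjusted p of limma, a linear model with variance shared across genes, was under 0.05. The read depth behind each value is unknown, and the precision rests on 3 samples a group.

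Control replicate 3 differed from the other controls in genes of other cells. Among leukocyte genes, picked here after their values were seen, Ptprc (CD45) had 40.1 FPKM in that muscle against 0.81 and 0.40 in the other controls and 0.23 to 0.40 in C26 muscles. Cd52 likewise had 256 FPKM against 2.77 and 1.89, with 0.33 to 1.78 in C26 muscles. Of the 10 leukocyte markers listed for the check, 7 had a value, and their mean log2 level was 3.47 in control replicate 3, 1.76 and 1.34 in the other controls and 1.88 to 2.65 in C26 muscles. Pecam1 was highest in that same muscle, while Cdh5, Kdr, Flt1, Tek, Tie1 and Cldn5 were lowest there among the controls, and the part of leukocyte RNA in these levels was not tested. Control replicate 1 had the highest FPKM among the controls for each marker gene except Pecam1. The summed FPKM of the 10 genes was 141 in control replicate 1, 94.6 in replicate 2 and 101 in replicate 3, against 80.1 to 86.2 in the C26 muscles. On the scaled mean log2 level the sets overlapped, with levels of 4.31, 3.99 and 3.73 for the controls, beside 3.75 to 3.78 for C26.

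Of the 10 marker genes, 3 fell in C26 muscles (Kdr, Eng and Emcn) and 0 rose. Among all genes, 14.5% fell and 19.4% rose by the same call, so that 33.8% changed in either direction, close to the 3 of 10 here. Of all calls 57.3% were higher, and 40.1% with FPKM as deposited, where 1678 genes rose and 2504 fell. No marker gene rose at an unadjusted p under 0.05 either (0 of 10, limma). In bulk muscle, fewer endothelial cells and less of a transcript per cell cannot be told apart. The median log2 fold change of the 10 genes was -0.27, beside -0.05 for all genes, with 7 of the 10 below 0 against 53.0% of all genes. None of the 10 passed a fold change of 4 (0 genes), a size that, with an adjusted p under 0.05, 1.73% of all genes reached downward and 1.77% upward. The count of 3 changed with the muscles used, and so did the share of all genes that fell. It was 5 without control replicate 3, where 14.7% of all genes fell, and 1 without C26 replicate 3 (16.2%). It was 0 without C26 replicate 1 (5.01% of all genes fell), C26 replicate 2 (7.08%), control replicate 1 (5.42%) or control replicate 2 (10.5%).

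The starts of the 3 genes that fell, and of Flt1, whose level did not follow that of the other VEGF-A receptor gene Kdr, are shown so that they can be compared. A start window was found in RefSeq (GRCm38.p6) for 7 of the 10 genes. Each run holds the 250 bases before the annotated start, 5′ to 3′ on the strand of the gene, and capitals mark AGGAAG or its reverse complement CTTCCT, a sequence that transcription factors of the ETS family can bind.
Kdr, chr5:75978456-75978705, minus strand: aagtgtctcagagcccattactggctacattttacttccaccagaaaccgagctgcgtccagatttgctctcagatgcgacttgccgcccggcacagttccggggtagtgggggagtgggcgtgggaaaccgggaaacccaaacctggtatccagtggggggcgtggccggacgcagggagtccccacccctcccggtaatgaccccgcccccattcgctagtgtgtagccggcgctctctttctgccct
Eng, chr2:32646345-32646594, plus strand: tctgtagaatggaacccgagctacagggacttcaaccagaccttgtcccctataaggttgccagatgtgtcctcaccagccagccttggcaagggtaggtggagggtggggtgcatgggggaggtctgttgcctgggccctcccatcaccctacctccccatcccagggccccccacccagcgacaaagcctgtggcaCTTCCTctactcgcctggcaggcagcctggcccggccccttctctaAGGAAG
Emcn, chr3:137340828-137341077, plus strand: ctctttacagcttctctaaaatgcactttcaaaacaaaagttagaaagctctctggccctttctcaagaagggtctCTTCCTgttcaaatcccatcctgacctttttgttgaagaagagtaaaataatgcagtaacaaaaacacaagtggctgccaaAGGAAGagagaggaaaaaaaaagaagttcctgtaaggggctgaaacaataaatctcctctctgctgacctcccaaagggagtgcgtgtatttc
Flt1, chr5:147726012-147726261, minus strand: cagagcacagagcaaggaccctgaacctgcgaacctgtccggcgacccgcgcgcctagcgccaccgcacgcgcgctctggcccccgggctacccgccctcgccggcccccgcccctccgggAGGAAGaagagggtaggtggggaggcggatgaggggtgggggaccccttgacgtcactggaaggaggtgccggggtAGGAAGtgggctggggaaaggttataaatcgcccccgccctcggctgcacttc
The capitalized letters were found 2 times each in the windows of Eng, Emcn and Flt1 and 0 times in that of Kdr, and 29.5% of 32851 windows of the same length held them. Of the other motifs searched on both strands, GGGCGG (a GC box) had 2 matches in Kdr and 3 in Flt1 and occurred in 32.7% of windows. TATAAA had 1 match in Flt1 and 0 in the other windows shown, and occurred in 12.4% of all windows. ACGTG, the core that hypoxia-inducible factors can bind, matched in none of the 4 windows (0 matches) and in 16.6% of all windows. None of these motifs occurred in the windows of all 3 genes that fell.

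**Figure D1:**
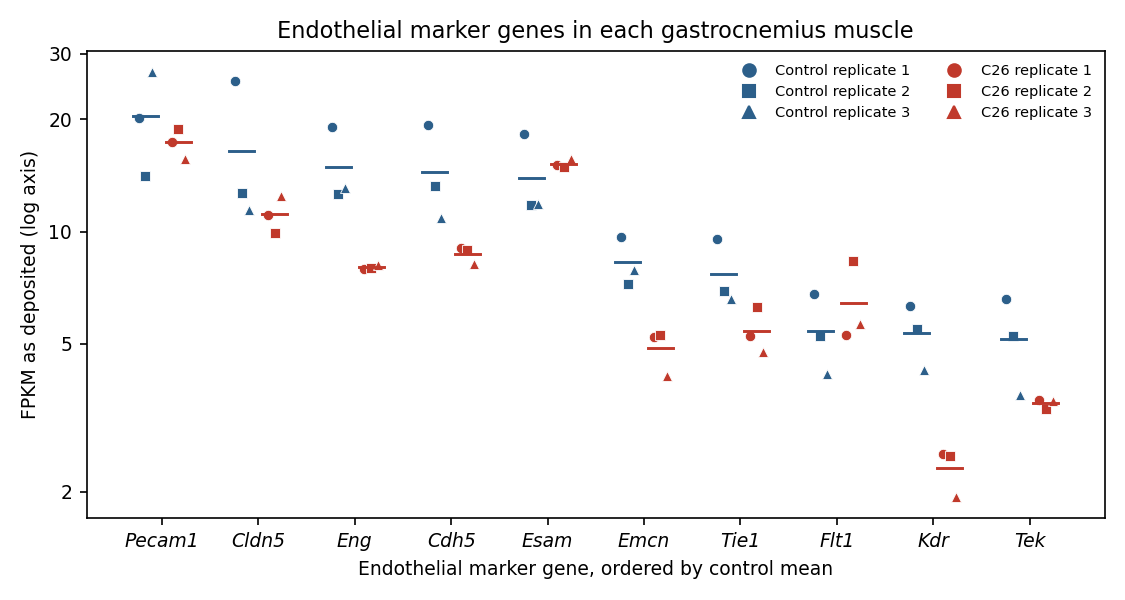
FPKM as deposited (log axis) of the 10 endothelial marker genes, ordered by their control mean; each point is a muscle, blue for control and red for C26, with the shape giving the replicate number and the line the group mean. On this scale 6 of the 10 genes (Kdr, Eng, Emcn, Cdh5, Tek and Tie1) lie lower in all C26 muscles, as do 34.6% of all genes, with means of 2.32, 8.02 and 4.86 FPKM against 5.33, 14.9 and 8.27 for the first 3, while the points of Pecam1, Esam, Flt1 and Cldn5 overlap.

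Kdr encodes VEGFR2, the main signalling receptor for VEGF-A. It had 2.52, 2.49 and 1.94 FPKM in the C26 muscles and 6.29, 5.47 and 4.24 FPKM in the controls. Every C26 value was below every control value, and the lowest control was replicate 3. The log2 fold change was -0.83 (SE 0.19, 95% interval -1.29 to -0.38, limma adjusted p = 0.0190), or 0.561 times the control on that scale, to which 1 was added. This was the largest fall among the 10 genes. In FPKM as deposited the C26 mean of Kdr was 0.434 times the control mean. With 1 muscle left out the log2 fold change lay between -1.01 and -0.70, and the call held in 2 of the 6 fits.

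Flt1 encodes VEGFR1, the tight binder of VEGF-A, also made as a soluble form that these values per gene do not separate from the membrane form. Its C26 muscles had 5.28, 8.31 and 5.66 FPKM and its controls 6.81, 5.25 and 4.15 FPKM. The groups overlapped, with C26 replicate 2 the highest of all muscles. Flt1 had a log2 fold change of 0.42 (SE 0.24, 95% interval -0.15 to 0.98, limma adjusted p = 0.206), so a difference was not shown.

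Tek and Tie1 encode the receptors of the angiopoietin system, Tie2 and its partner Tie1. Tek had 3.52, 3.34 and 3.51 FPKM in the C26 muscles and 6.58, 5.24 and 3.63 FPKM in the controls, where replicate 3 lay next to the C26 values. Its log2 fold change was -0.28 (SE 0.23, limma adjusted p = 0.365), and without control replicate 3 it was -0.53 (limma adjusted p = 0.0399). Tie1 had 5.24, 6.25 and 4.74 FPKM in the C26 muscles and 9.53, 6.91 and 6.59 FPKM in the controls. As deposited these FPKM did not overlap, but after scaling they did, and the log2 fold change was -0.25 (SE 0.18, limma adjusted p = 0.295).

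Eng encodes endoglin, the co-receptor of endothelial cells for BMP9 and TGF-β ligands. Its level was nearly the same in the 3 C26 muscles, at 7.93, 7.98 and 8.14 FPKM, and more spread in the controls, at 19.1, 12.6 and 13.1 FPKM. All C26 muscles lay below all controls. This gave a log2 fold change of -0.62 (SE 0.18, 95% interval -1.05 to -0.19, limma adjusted p = 0.0402), and the call held in 1 of the 6 fits with a muscle left out, that without control replicate 3.

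Emcn encodes endomucin, a sialomucin of capillary and venous endothelium. It had 5.20, 5.28 and 4.10 FPKM in the C26 muscles and 9.66, 7.25 and 7.89 FPKM in the controls. The groups did not overlap. Emcn had a log2 fold change of -0.50 (SE 0.15, 95% interval -0.86 to -0.14, limma adjusted p = 0.0427), and the call again held in 1 of 6 fits, that without control replicate 3. Kdr, Eng and Emcn were the 3 marker genes whose groups did not overlap on the scaled values, a pattern met by 53.5% of all genes. On FPKM as deposited, before scaling, 6 of the 10 did not overlap, all 6 lower in C26, beside 53.3% of all genes without overlap and 34.6% lower without overlap.

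Among the genes of cell contacts, Cdh5 encodes VE-cadherin, the cadherin of the endothelial adherens junction. It had 9.02, 8.92 and 8.19 FPKM in the C26 muscles and 19.3, 13.3 and 10.9 FPKM in the controls. The FPKM did not overlap, but on the scaled values control replicate 3, at 4.06 on the log2 scale, lay within the C26 range of 4.02 to 4.09. The log2 fold change was -0.45 (SE 0.22, 95% interval -0.99 to 0.08, limma adjusted p = 0.157). Without control replicate 3 it was -0.68 (limma adjusted p = 0.0291).

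Cldn5 encodes claudin-5, the tight junction claudin of endothelium. Its C26 muscles had 11.1, 9.88 and 12.4 FPKM and its controls 25.4, 12.7 and 11.4 FPKM. Control replicate 1 alone stood high, and the other controls lay within or next to the C26 range. Cldn5 had a log2 fold change of -0.25 (SE 0.31, limma adjusted p = 0.545), and without control replicate 1 it was 0.07 (limma adjusted p = 0.832).

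Esam encodes an adhesion molecule of endothelial tight junctions and platelets. It had 15.1, 14.9 and 15.7 FPKM in the C26 muscles and 18.2, 11.8 and 11.8 FPKM in the controls. Control replicate 1 lay above the C26 muscles and the other controls below them. Esam had a log2 fold change of 0.36 (SE 0.20, 95% interval -0.11 to 0.83, limma adjusted p = 0.196).

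Pecam1 encodes PECAM-1 (CD31), an adhesion molecule of endothelial cells that platelets and many leukocytes also carry. It was the most abundant of the 10 genes by group mean, with 17.4, 18.9 and 15.7 FPKM in the C26 muscles and 20.2, 14.1 and 26.8 FPKM in the controls. The C26 values lay inside the control range, and control replicate 3 was the highest. The log2 fold change was 0.03 (SE 0.19, 95% interval -0.44 to 0.50, limma adjusted p = 0.920). Its sign turned with the scaling: FPKM as deposited gave -0.18, quantile normalization -0.31 and weighted TMM -0.02.

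**Figure D2:**
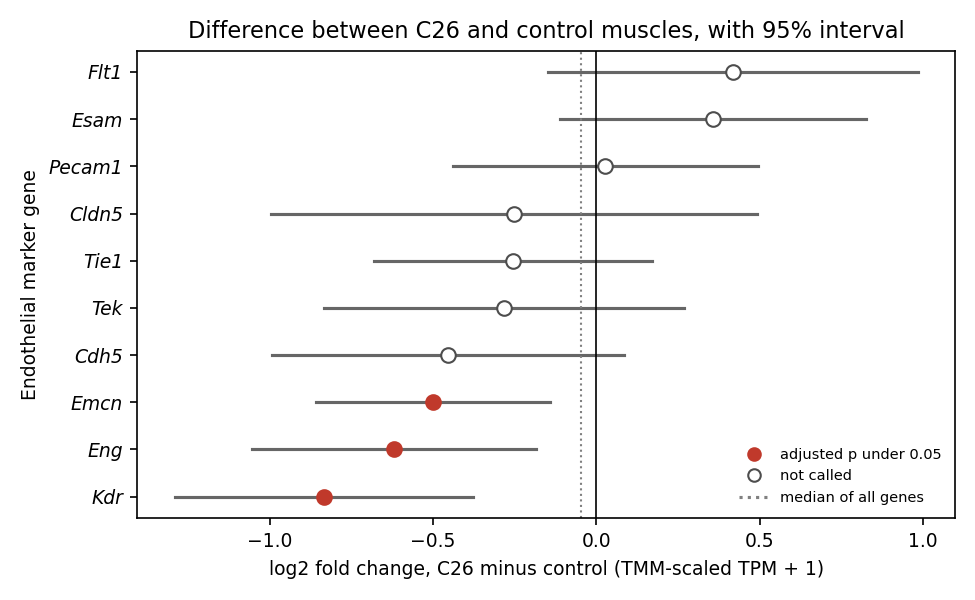
Log2 fold change of each endothelial marker gene, C26 minus control, with its 95% interval from limma; filled points have an adjusted p under 0.05 and the dotted line is the median of all genes, -0.05. The intervals of Kdr, Eng and Emcn lie below 0, and those of the other genes, from Cdh5 at -0.45 to Flt1 at 0.42, include 0.

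**Figure D3:**
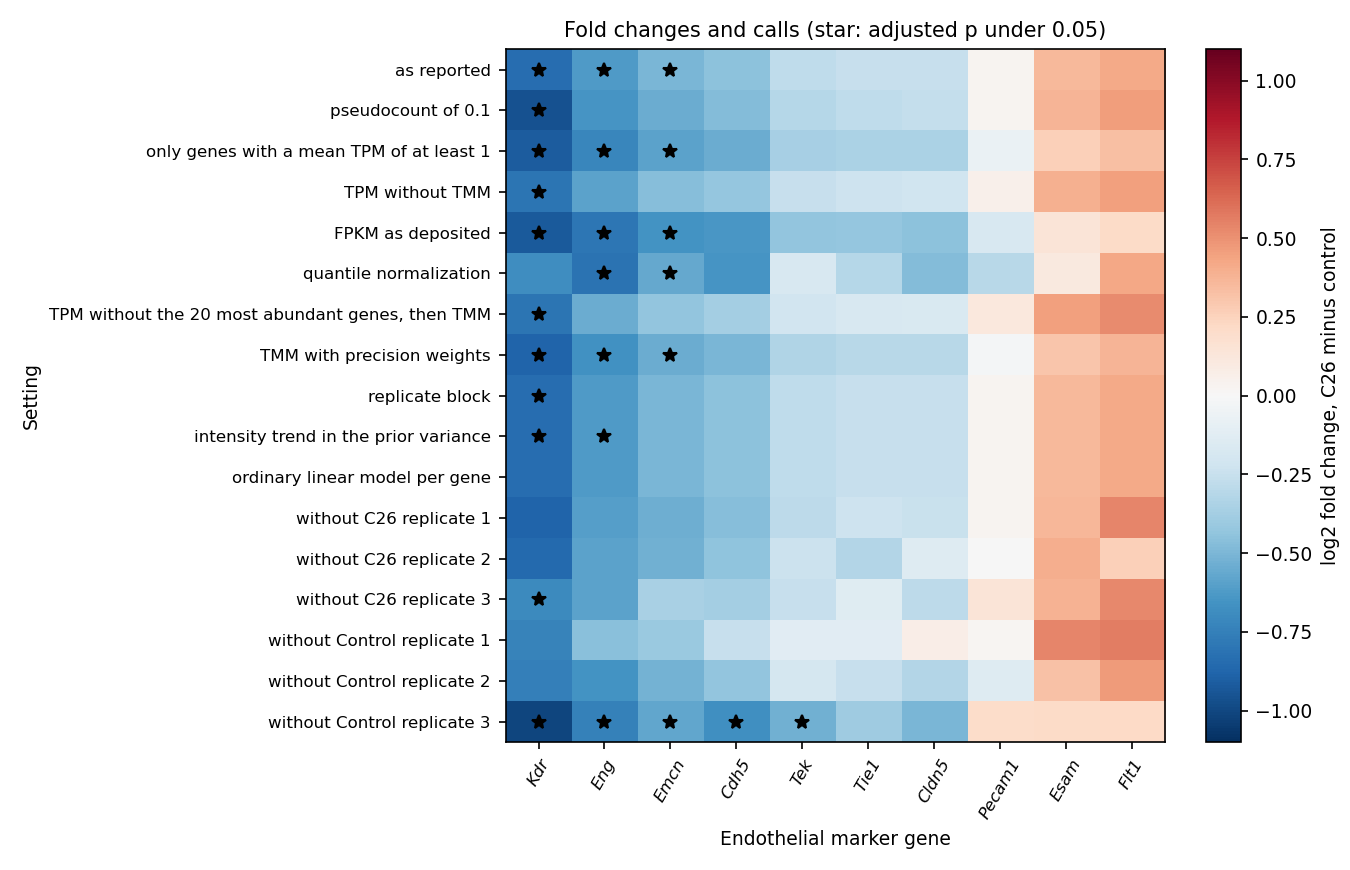
Log2 fold change (color) of each endothelial marker gene under each setting, with a star where the adjusted p was under 0.05. Stars lie on Kdr, Eng and Emcn as reported, and without control replicate 3 also on Cdh5 and Tek, so that 5 genes are called there, whereas 4 of the 6 rows that leave out a muscle hold none.

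The order of the levels was read within each muscle. Pecam1 ranked first of the 10 genes in all C26 muscles and in control replicates 2 and 3, and Cldn5 ranked first in control replicate 1. Kdr ranked 10, the lowest, in each C26 muscle. In the controls Kdr ranked 10 in replicate 1 and 8 in replicates 2 and 3, where Tek was lowest. Esam ranked 2 in every C26 muscle and 5, 5 and 3 in the controls. By group mean, Flt1, Kdr and Tek had 5.40 ± 1.34, 5.33 ± 1.03 and 5.15 ± 1.48 FPKM in the controls (SD, n = 3) and did not differ beyond their spread. In C26 muscles the same 3 genes had 6.42 ± 1.65, 2.32 ± 0.327 and 3.46 ± 0.101 FPKM and were set apart.

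Ratios between genes of the same muscle do not depend on how samples are scaled, and they are given as a description because the pairs were picked after seeing them. The ratio of Flt1 to Kdr FPKM was 2.10, 3.34 and 2.92 in the C26 muscles, against 1.08, 0.960 and 0.979 in the controls. That was the largest shift among the 45 pairs, by 1.44 on the log2 scale, or 2.72-fold. Esam to Kdr gave 6.0, 5.98 and 8.07 in the C26 muscles, against 2.90, 2.16 and 2.79 in the controls. Esam to Eng gave 1.91, 1.87 and 1.92 in the C26 muscles, against 0.958, 0.933 and 0.906 in the controls. The Tie1 to Tek ratio, by contrast, overlapped between the groups, at 1.49, 1.87 and 1.35 in C26 and 1.45, 1.32 and 1.82 in control muscles.

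Across all 45 pairs, 23 did not overlap between the groups (51.1%), and each of these reached p = 0.1 in a two-sided exact permutation test, the smallest p that 3 samples against 3 allow. Among all pairs of the listed genes, 51.1% did not overlap, so the share among the marker genes was that of genes at large. Kdr was lower relative to 8 of its 9 partners without overlap, and Flt1 and Esam were each higher relative to 7 of 9.

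**Figure D4:**
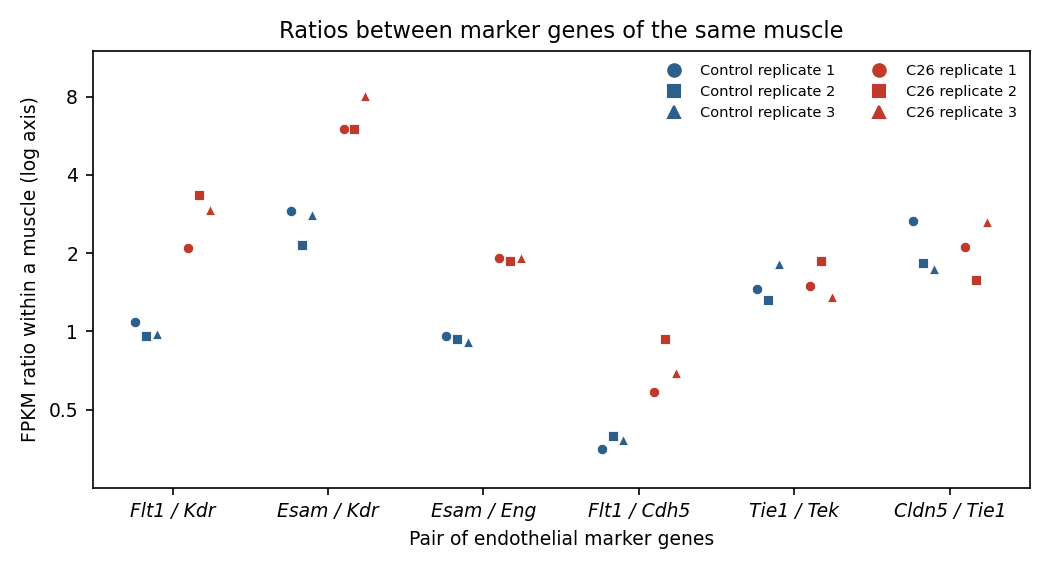
Ratio of the FPKM of pairs of endothelial marker genes within each muscle (log axis), blue for control and red for C26, with the shape giving the replicate number. Flt1/Kdr lies near 1 in the controls and between 2.10 and 3.34 in C26 muscles, the first 4 pairs are separated and the last pairs, Tie1/Tek and Cldn5/Tie1, overlap.

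The other genes of vessels were read from 8 lists written by symbol, holding 109 genes with a value. Of these, 27 fell and 11 rose, that is, in both directions and with no single sign, beside 14.5% and 19.4% of all genes. With C26 replicate 1, C26 replicate 2 or control replicate 1 left out, 8, 8 and 7 of the 109 fell, beside 5.01%, 7.08% and 5.42% of all genes in the same fits. Counts of a single list without a muscle stand against the same lower shares.

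Among ligands, 8 of 11 listed had a value, and 2 fell and 1 rose; 0 fell without C26 replicate 1, C26 replicate 2 or control replicate 1, and 3 without C26 replicate 3 or control replicate 3. Vegfd, a ligand of VEGFR3, and in some species of VEGFR2, rose from 1.90, 0.88 and 0.70 FPKM in the controls to 3.08, 7.23 and 6.18 FPKM, a log2 fold change of 1.94 (SE 0.36, limma adjusted p = 0.0108). It was called in all 6 fits with a muscle left out. Vegfc, the main lymphatic growth factor, fell from 1.45 ± 0.491 to 0.270 ± 0.204 FPKM (log2 fold change -1.12, and -2.13 with 0.1 added in place of 1, limma adjusted p = 0.0163, called in 3 of 6 fits). Angpt2, the angiopoietin that counters Tie2 signalling, fell from 0.730 ± 0.225 to 0.200 ± 0.0265 FPKM (log2 fold change -0.63, limma adjusted p = 0.0222, 3 of 6 fits), and its log2 fold change was -1.38 with 0.1 added. At such low levels the added 1 understates the change.

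Vegfa, the ligand of both VEGF receptors above, had 75.9, 66.7 and 54.7 FPKM in the C26 muscles and 58.8, 55.4 and 41.6 FPKM in the controls. The FPKM overlapped, but on the scaled log2 values they did not, at 6.71 to 7.08 in C26 and 5.93 to 6.57 in control muscles. The log2 fold change of 0.55 (SE 0.21) did not pass (limma adjusted p = 0.0849, unadjusted p = 0.0368). Vegfb, a ligand of VEGFR1 abundant in muscle, had 108 ± 7.29 FPKM in C26 and 95.7 ± 14.5 in control muscles (log2 fold change 0.40, limma adjusted p = 0.163). Angpt1, which activates Tie2, differed by -0.55 with an SE of 0.44 (limma adjusted p = 0.360), by -1.16 with 0.1 added (limma adjusted p = 0.262), and by -1.02 without C26 replicate 3 (limma adjusted p = 0.0211). In FPKM, a level per length, Vegfa and Vegfb lay above Kdr and Flt1 in every muscle.

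Of 8 partner receptors, 1 fell and 1 rose, and 0 rose without C26 replicate 1, C26 replicate 2 or control replicate 1, while 2 fell without control replicate 3. Plxnd1, the semaphorin receptor of endothelium, fell from 7.87, 6.61 and 5.93 FPKM in the controls to 2.46, 2.03 and 1.95 FPKM, a log2 fold change of -1.24 (SE 0.17, limma adjusted p = 0.00509), and was called in all 6 fits with a muscle left out. Tgfbr2, the type II TGF-β receptor found on many cell types, rose by 0.86 on the log2 scale (limma adjusted p = 0.0268, 2 of 6 fits). Nrp1, a VEGF-A co-receptor, gave -0.26 (limma adjusted p = 0.349). Ptprb, the phosphatase VE-PTP that acts on Tie2 and VE-cadherin, gave -0.13 (limma adjusted p = 0.662). Acvrl1, the ALK1 receptor that works with endoglin, gave -0.52 (limma adjusted p = 0.106), and -0.71 without control replicate 3 (limma adjusted p = 0.0388).

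Of 11 junction partners with a value, 2 rose and 2 fell. Without C26 replicate 1 none passed (0 higher and 0 lower), 0 fell without C26 replicate 2, control replicate 1 or control replicate 2, and 1 fell without C26 replicate 3. The adherens junction genes Jup (plakoglobin) and Ctnna1 (α-catenin), which other cells of muscle also make, rose by log2 fold changes of 1.04 and 0.90, each called in 5 of 6 fits. Afdn (afadin) and Jam3 fell by 0.78 and 0.49 on the log2 scale, each called in 1 of 6 fits with a muscle left out. Of 14 genes downstream of the receptors, 2 rose and 0 fell: Pik3r1, a regulatory subunit of PI3 kinase (log2 fold change 1.01, 4 of 6 fits), and Id1, a BMP target (0.57, 2 of 6 fits). With a muscle left out 0 to 2 rose, 0 without C26 replicate 2, 2 without C26 replicate 3 and 1 in each other fit, and 1 fell without C26 replicate 3 and 2 without control replicate 2 or control replicate 3. The 12 others did not pass, Nos3 among them, the endothelial nitric oxide synthase, at 2.43 ± 0.141 FPKM in C26 and 4.05 ± 1.83 in control muscles (log2 fold change -0.37, limma adjusted p = 0.337). Without control replicate 3, Nos3 gave -0.66 (limma adjusted p = 0.0479).

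Notch pathway genes of vessels had 5 of 11 lower and 0 higher, beside the 14.5% lower among all genes, and a median log2 fold change of -0.67. The ligand Dll1 fell from 2.39 ± 0.381 to 0.650 ± 0.0819 FPKM (log2 fold change -1.11, SE 0.14, limma adjusted p = 0.00463). Hes1, a target of Notch, fell from 9.07 ± 1.65 to 3.72 ± 0.418 FPKM (log2 fold change -0.95, limma adjusted p = 0.00891). Both were called in all 6 fits with a muscle left out. Nrarp and Hey1, also Notch targets, each fell by 0.88 on the log2 scale and held in 3 of 6 fits each, and Hey1 gave -1.32 with 0.1 added. Myofibers and muscle stem cells use Notch too, so these genes are not marks of endothelium alone. The count of 5 was 3 without C26 replicate 1 and 2 without C26 replicate 2 or control replicate 1.

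Of 19 endothelial transcription factor genes with a value, 5 fell and 3 rose, and 0 fell with C26 replicate 1, C26 replicate 2 or control replicate 1 left out and 3 without C26 replicate 3. Erg, an ETS factor of endothelium, had 2.30 ± 0.611 FPKM in C26 and 3.29 ± 1.28 in control muscles (limma adjusted p = 0.523). Sox17 and Sox18 gave log2 fold changes of -0.13 and -0.40 (limma adjusted p = 0.650 and 0.212), whereas Sox7, of the same SoxF group, fell by 1.01 on the log2 scale (limma adjusted p = 0.0181, 2 of 6 fits), and by 1.66 with 0.1 added. Elk3, an ETS factor, fell by 0.80 (limma adjusted p = 0.0213, 2 of 6 fits). The 4 named by size of change are also active outside vessels. Mef2c, a muscle regulator as well, fell by 2.55 on the log2 scale (SE 0.72) and held in 1 of 6 fits, with log2 fold changes of -3.36 to -1.97. Foxo1, a regulator of atrophy in myofibers, rose by 2.09 and held in all 6. Lmo2, shared with blood cells and at 28.9 FPKM in control replicate 3, fell by 1.89 and held in 2 of 6 fits, with log2 fold changes of -2.41 to -1.23. Klf4 rose by 1.12 and held in 2.

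Of 28 other endothelial genes with a value, 7 fell and 2 rose, and 3 fell without C26 replicate 1 or control replicate 1 and 4 without C26 replicate 2. Cd34, a sialomucin of capillary endothelium and of stromal progenitors, fell from 30.3, 23.6 and 23.3 FPKM in the controls to 12.3, 8.93 and 11.9 FPKM, a log2 fold change of -0.97 (SE 0.20, limma adjusted p = 0.0146). Aplnr, the apelin receptor, fell from 2.22 ± 1.05 to 0.163 ± 0.0987 FPKM (log2 fold change -1.72, and -3.20 with 0.1 added, limma adjusted p = 0.00649) and Rasgrp3, a Ras activator, from 10.6 ± 1.22 to 2.10 ± 1.24 FPKM (-1.96, limma adjusted p = 0.0108). Both held in all 6 fits with a muscle left out. Icam2 fell by 1.44 on the log2 scale (3 of 6 fits). Rgcc, a regulator of the cell cycle, rose from 41.6 ± 8.77 to 92.0 ± 27.8 FPKM (log2 fold change 1.32, 5 of 6 fits).

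Vwf, the clotting factor stored by endothelial cells, had 2.73 ± 0.222 FPKM in C26 and 2.64 ± 0.876 in control muscles (limma adjusted p = 0.372). Plvap, of the diaphragms of fenestrated capillaries, had 18.2 ± 6.24 and 16.0 ± 6.46 FPKM (limma adjusted p = 0.335). Neither difference exceeded the spread between muscles.

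Genes of arterial, venous and activated endothelium had 5 of 11 lower and 0 higher, beside 14.5% lower and 19.4% higher among all genes. Gja4 (an arterial connexin) fell from 5.69, 3.33 and 4.85 FPKM in the controls to 1.62, 2.07 and 1.38 FPKM (limma adjusted p = 0.0106) and held in all 6 fits. Efnb2 (ephrin B2, arterial) and Nr2f2 (COUP-TFII, venous) fell by 0.80 and 0.73. Other genes of the list, named after their values were seen, did not pass: the venous Ephb4 gave -0.25 and Ackr1 0.68, and the arterial Sema3g 0.58 (limma adjusted p = 0.373, 0.148 and 0.234). Vcam1, an adhesion molecule of activated endothelium, fell by 1.42 (2 of 6 fits), with 2.34, 1.14 and 5.47 FPKM in the controls, highest in replicate 3, where leukocyte genes were high, by 0.99 without that muscle and by 2.09 with 0.1 added. Of the other activation genes, Selp (P-selectin) gave 0.71 (limma adjusted p = 0.0647; 1.30 with 0.1 added; called in 1 of 6 fits and 2 of 10 settings) and Icam1 -0.49 (limma adjusted p = 0.527). The count of 5 was 1 with C26 replicate 1, C26 replicate 2 or control replicate 1 left out.

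Of the mural cells that wrap vessels, 3 of 12 marker genes fell and 0 rose, with 11 of the 12 below 0. Over all genes 14.5% fell, 19.4% rose and 53.0% lay below 0. Cspg4 (NG2) and Pdgfrb, markers of pericytes, fell by 1.48 and 0.70 on the log2 scale, and the pericyte potassium channel gene Kcnj8 fell by 0.70, each called in 2 of 6 fits, and Cspg4 gave -2.11 with 0.1 added. The count was 0 with C26 replicate 1, C26 replicate 2 or control replicate 1 left out, 1 without control replicate 2, and 5 without C26 replicate 3 or control replicate 3. In the same order, 5.01%, 7.08%, 5.42%, 10.5%, 16.2% and 14.7% of all genes fell in these fits. Lymphatic endothelial markers gave 0 calls among 6 genes (limma; 1 had an unadjusted p under 0.05, and quantile normalization called 2 higher), and their mean log2 level lay between 0.93 and 1.18 for controls, beside 1.16 to 1.26 for C26 muscles.

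Markers of other cells were read from the same samples beside these levels. Their counts stand against 14.5% of all genes that fell and 19.4% that rose. Of 11 fibroblast markers 6 fell and 0 rose, with a median log2 fold change of -1.099 against -0.27 for the endothelial markers. Of 8 adipocyte markers 6 fell and 0 rose, with a median of -3.90 and summed FPKM of 252 to 388 in C26 muscles and 540 to 4143 in the controls. All 4 red cell genes with a value of 7 rose, with Hba-a1 at 481 ± 170 FPKM in C26 and 236 ± 48.8 in control muscles, although Hba-a1 and Hba-a2 are near-identical copies between which reads can be split. Of 6 Schwann cell markers 1 fell, of 4 platelet markers with a value 1 fell (Pf4), and of 5 muscle stem cell markers 1 rose (Sdc4). Of 7 leukocyte markers with a value, 2 rose, the neutrophil genes S100a8 and S100a9. Myofiber genes marked the tissue as muscle, with summed FPKM of 53913 to 81620 in C26 and 107862 to 110458 in control muscles, and 1 of 10, Pvalb, fell. Without C26 replicate 1, 3 fibroblast, 0 adipocyte and 1 red cell markers kept a call, and without control replicate 1 the counts were 3, 1 and 1. In these 2 fits 5.01% and 5.42% of all genes fell, and 1131 and 1152 of the 13363 genes rose. The part of these other cells in the endothelial values was not tested.

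**Figure D5:**
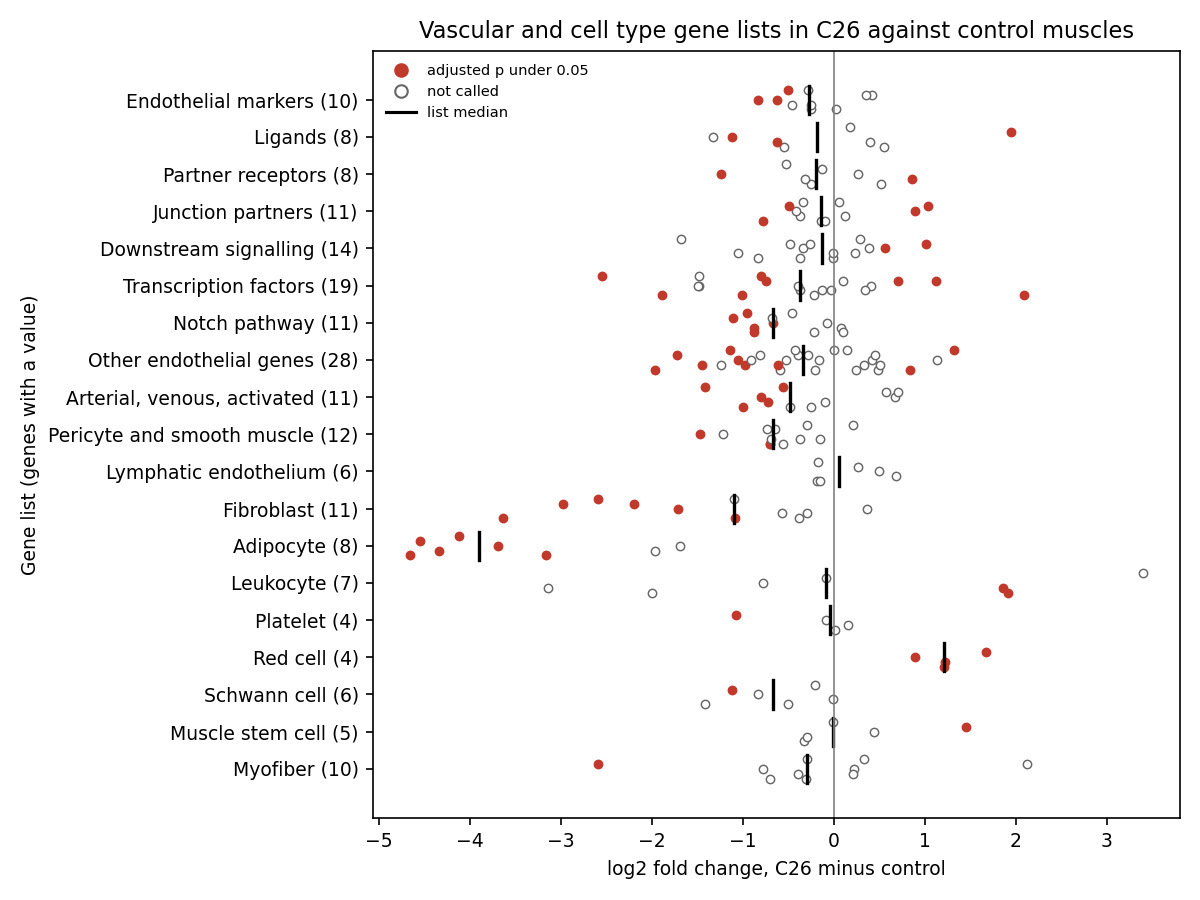
Log2 fold change, C26 minus control, of every gene with a value in the endothelial marker list, the 8 other vascular lists and the lists of other cell types; each point is a gene, filled where the adjusted p was under 0.05, and the bar is the list median. The endothelial marker median of -0.27 lies nearer to 0 than those of the fibroblast (-1.099) and adipocyte (-3.90) lists, and the red cell median lies at 1.21.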

How the data were processed

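Total RNA from gastrocnemius muscle was depleted of rRNA, and 6 libraries were sequenced as single-end reads of 50 bases. The authors filtered the reads, aligned them to GRCm38.p5 with bowtie2 and made the deposited FPKM with RSEM. The submitters' processing notes also list mm9, HISAT2 2.0.4, Bowtie2 2.2.5 and RSEM 1.2.12, so the build is given differently by the sources. The extraction text of the sample labels also names infected THP-1 cells, a human line, which goes against the labelled mouse muscle. No coordinates are in the values. All 13363 listed genes have an FPKM above 0 in every sample, so genes at 0 in any sample were not analysed here. Read counts were not used here, and the depth is unknown.

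Groups and replicate numbers came from the sample titles. Symbols were found for 13327 Entrez gene IDs and not for 36. FPKM were rescaled to TPM and divided by TMM factors (own code, trimming 30% of the log ratios and 5% by mean level at each end, without precision weights), 1 was added, and log2 values were compared with limma 3.58.1 under R 4.3.3, with Benjamini-Hochberg adjustment over all 13363 genes. In a test on simulated data for this comparison with 13363 genes, 184 of 200 genes changed by 2 on the log2 scale were recovered, 9 unchanged genes were called, and 0 were called when none was changed. The marker genes differed by 0.83 or less, so this recovery does not tell how often changes of their size would be called. Promoter windows came from RefSeq. Figures were drawn with matplotlib 3.10.9. The marker genes and all lists were chosen with earlier results of these data known.

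Besides the 10 marker genes, the genes named were drawn from up to 4 genes a list with the largest called change, a mean FPKM of at least 1 in a group and no overlap, 14 further vascular genes, and the 5 genes with the most similar profile. Sox7, Elk3, Ephb4, Ackr1, Sema3g, Selp and Icam1 were added after their values were seen. The alternatives were FPKM with no rescaling, quantile normalization, TPM alone, scaling that left out the 20 most abundant genes, a filter on mean TPM (1 or more), a pseudocount of 0.1, a replicate block, an intensity trend, an ordinary linear model, and each muscle left out. Weighted TMM was added after the data had been seen.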

Additional observations from a re-analysis of the deposited data

How the results depend on the processing

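The log2 fold changes of Kdr, Eng and Emcn stayed below 0 under all 10 alternatives and with each muscle left out, but their calls did not hold throughout. Under the alternatives with all muscles the call held in 8 of 10 for Kdr, 5 for Eng and 4 for Emcn. The marker genes that fell numbered 1 with a pseudocount of 0.1, with TPM without TMM, with scaling that left out the 20 most abundant genes and with the replicate block, and 0 with the ordinary linear model, whose test has fewer degrees of freedom. They numbered 0 to 5 with each muscle left out. The median log2 fold change of the marker genes lay between -0.52 (without control replicate 3) and -0.12 (without control replicate 1). The cause was not tested.

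No sign was seen that the replicate numbers pair the samples. The correlation of deviations between same-numbered muscles was -0.04, -0.08 and -0.11, and 0 of the 6 muscles correlated best with its own number. With 3 samples a group this check cannot exclude a pairing or a shared batch. With the replicate block 1844 genes rose and 1236 fell. Over all genes, 2590 rose and 1931 fell (57.3% of calls higher). FPKM as deposited gave 1678 higher and 2504 lower (40.1%), the ordinary linear model gave 1526 and 959, and leaving out a muscle gave 1131 to 3311 higher and 669 to 2160 lower. Of the 109 vascular genes, 3 rose and 8 fell with the ordinary linear model and 14 fell with quantile normalization, and leaving out a muscle gave 5 to 12 higher and 7 to 30 lower.

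Log2 fold changes near 0 changed sign. Pecam1 gave -0.069 with the mean TPM filter, -0.18 with FPKM as deposited, -0.31 with quantile normalization, -0.0221 with weighted TMM, and -0.14 to 0.20 with a muscle left out, below 0 without C26 replicate 2 or control replicate 2. Quantile normalization gave -0.0207 for Vegfb, 0.0231 for Ptprb, 0.00399 for Erg and 0.0689 for Sox17. With a muscle left out, Cldn5 lay between -0.50 and 0.0731, Ptprb between -0.34 and 0.0580, Erg between -0.42 and 0.0129 and Sox17 between -0.23 and 0.00717, each above 0 only without control replicate 1.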

Other observations

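The 5 genes whose log2 profile over the 6 muscles was most like the mean standardized profile of the endothelial marker genes were Rsad2, Serpina3c, Tcf7l2, Oas2 and Nos3, with Pearson r of 0.985 to 0.997 among 11213 genes. The points share libraries and scaling, and the likeness is given as a description. Each of the 5 was highest in control replicate 1, with Rsad2 at 5.65 FPKM there, 1.36 and 0.28 in the other controls and 0.23 to 0.38 in C26 muscles. None of the 5 was called between the groups (limma adjusted p from 0.127 to 0.378). Among the marker genes themselves the correlation of pairs over the 6 muscles ran from -0.72 to 0.96.

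C26 replicates 2 and 3 each held values of other cell or fiber types far from those of their group, chosen after the values were seen. Cd68 had 247 FPKM in C26 replicate 2 and 34.9 and 6.46 in the other C26 muscles. The controls all lay below these, at 4.75, 1.75 and 5.77 FPKM, and Cd68 was not called (log2 fold change 3.40, SE 1.18, limma adjusted p = 0.0653). In C26 replicate 3, Myh1 had 2555 FPKM against 299 and 254, and Mb 4906 FPKM against 275 and 74.0.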
